A study of Cenchrus americanus with 9 samples.

Results

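Pearl millet genes whose RNA levels were higher in lateral roots than in crown and primary root tips were taken from a root RNA-seq experiment. Of the 19754 genes of the table, 128 belonged to this set. A gene was taken when its lowest lateral root value was at least 100 normalised counts and at least 3 times its highest value in any crown or primary root library. Its lowest primary root value also had to stay below 2 times its highest crown root value, and each root type had to hold at least 1 value above 0. A normalised count is a count divided by 1 factor for its library. The members were thus chosen on the same values that are described here. The differences between lateral roots and the other root types are the rule itself and are given as a description. Model calls are counted for them beside the share over all genes, and nothing is read from those counts.

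All plants were of the genotype Tift23DB and were 15 days old, grown in rhizotrons, which are thin boxes with a transparent side. Lateral roots were collected from primary roots, whereas crown roots and primary roots were each represented by their apical 5 cm. Each root type had 3 libraries, and the roots of 3 plants were pooled for each library. The crown and primary samples were tips and the lateral samples were not described as tips, so root type and part of the root sampled cannot be told apart. In these bulk samples, fewer cells of a type and less RNA per cell cannot be told apart either.

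The root system of a cereal holds several root types. The primary root emerges from the embryo at germination, crown roots emerge later from the base of the shoot, and lateral roots branch from both. Lateral roots start from cell divisions inside the parent root, in grasses in the pericycle and endodermis, and push out through the outer tissues of that root. They make up much of the absorbing surface of a root system. In many cereals they are of several sizes, and the thinnest stop growing early. A tip sample holds the dividing zone, the elongation zone and young mature tissue, while a whole lateral root holds these zones together with older tissue.

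The libraries held between 39739052 and 64062081 counts as recovered from the deposited values. Their normalised totals were 48396078 to 49845075 in lateral roots, 52916036 to 57967565 in crown roots and 47180332 to 50460211 in primary roots. The genes carry assembly identifiers, and no annotation of them was used here, so members have no names, roles, positions or sequences, and the tissue labels were not checked against marker genes. The values are not scaled to the length of a gene, so a higher value of one gene than of another does not show more transcripts of it. The text below compares each gene with itself across root types. Where genes are set side by side, the quantity is a normalised count.

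The conditions on the lateral root values were met by 184 genes. Of these, 55 were left out because every primary root value was at least 2 times every crown root value. A further gene was left out only because it had no value above 0 in a root type. The opposite pattern, with all lateral root values at least 3 times below all others and those others at least 100, was found in 17 genes.

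**Figure D1:**
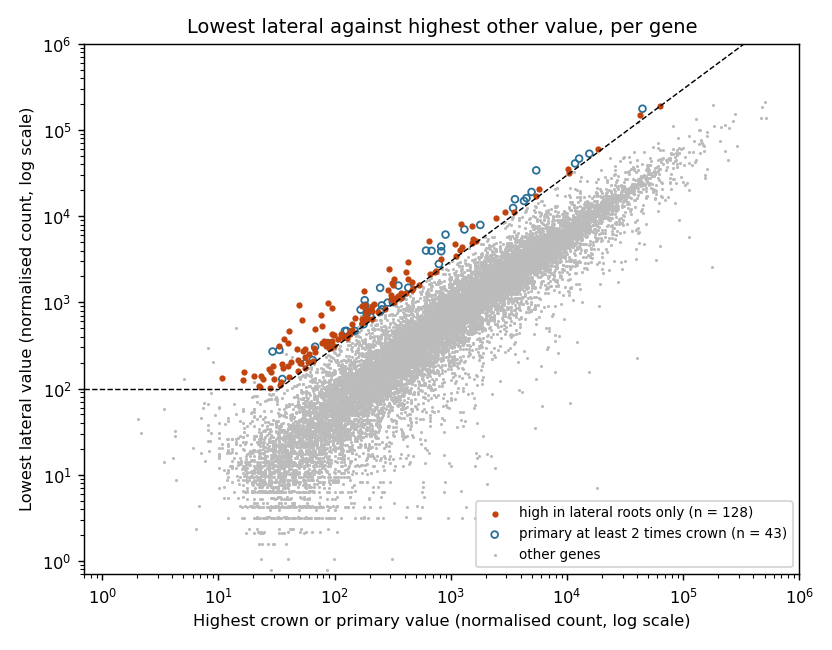
Highest normalised count in any crown or primary root library (horizontal axis) against the lowest normalised count in lateral roots (vertical axis), 1 point per gene, both axes on a log scale. The 128 members are set apart in colour from the genes left out because primary roots were at least 2 times crown roots and from the other genes (grey), which include those left out for a root type at 0, and grey genes with a 0 on an axis are not drawn. The members lie above the dashed lines of a ratio of 3 and a floor of 100, and 67 of them have a ratio under 4.

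The members covered a wide range of levels above the floor of the rule, and the lowest member stood above 21.7% of genes in lateral roots. Their mean value in lateral roots went from 128 to 223503, with a median of 849 normalised counts, against a median of 682 over all genes. In crown roots the median of the members was 55.3 normalised counts, against 620 over all genes. In primary roots it was 107 normalised counts, against 633 over all genes. The median member stood above 54.5% of genes in lateral roots, above 15.35% in crown roots and above 20.8% in primary roots. The median member thus sat near the middle of all genes in lateral roots and among the lower genes in crown and primary roots. Single members stood above 0.572% to 98.09% of genes in crown roots and above 0.192% to 99.67% in primary roots.

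The ratio of the lowest lateral root value to the highest value elsewhere had a median of 3.94 and lay between 3.31 and 5.14 at the quartiles. It was under 4 in 67 members, from 4 to 5 in 25, from 5 to 10 in 30 and 10 or more in 6. The lateral root mean was 12.2 times the crown root mean in the median member, and between 8.17 and 27.0 times at the quartiles. It was 7.18 times the primary root mean in the median member, with quartiles of 5.34 and 10.4. The rule compares extreme libraries, so these ratios of means are larger than the ratio on which genes were chosen.

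The genes closest to the limits were as follows. Just inside the ratio of 3 were Pgl_GLEAN_10016836 at 3.001, Pgl_GLEAN_10022281 at 3.009 and Pgl_GLEAN_10004687 at 3.029. Just outside it were Pgl_GLEAN_10021963 at 2.996, Pgl_GLEAN_10034582 at 2.987 and Pgl_GLEAN_10034195 at 2.975. Just inside the floor, the lowest lateral root value was 101.88 for Pgl_GLEAN_10029265, 103.48 for Pgl_GLEAN_10016973 and 108.28 for Pgl_GLEAN_10038443. Just outside it, this value was 95.7 for Pgl_GLEAN_10003817, 87.92 for Pgl_GLEAN_10027451 and 86.29 for Pgl_GLEAN_10033820. Next to the ratio limit the genes differed by little in the ratio itself, while their levels differed widely. Next to the floor, Pgl_GLEAN_10027451 had a ratio of 10.2 and was left out by its lowest lateral root value.

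**Figure D2:**
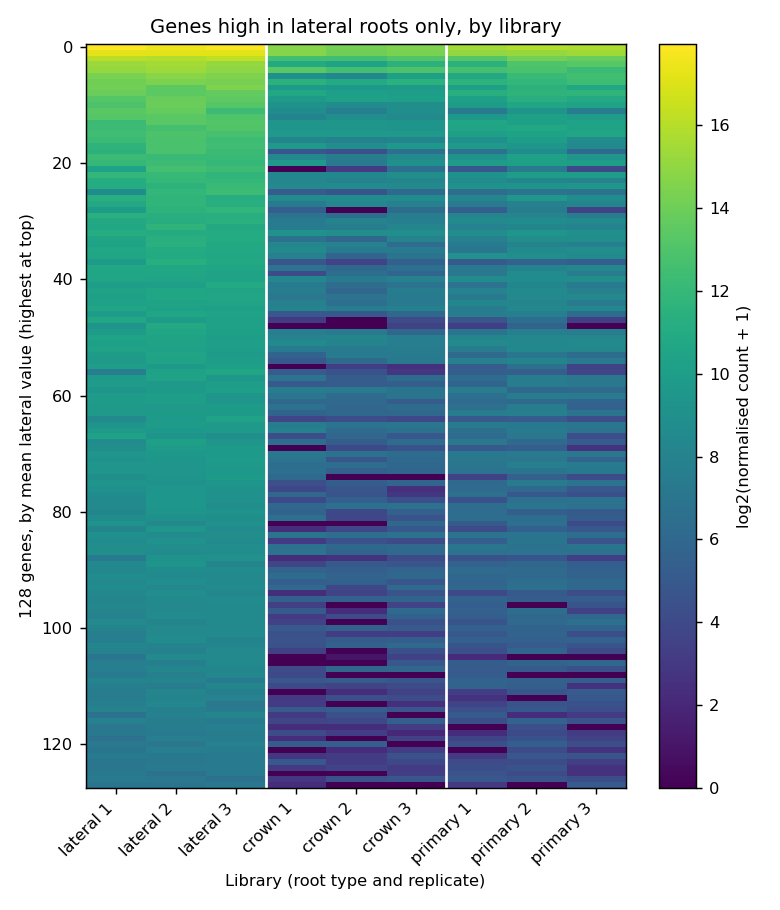
Heat map of the 128 members (rows, the highest lateral root mean at the top) in the 9 libraries (columns, lateral, crown and primary roots), with the colour giving log2(normalised count + 1) on the scale beside it. In every row the lateral root cells are the brightest, and the darkest cells, at 0, belong to crown or primary root libraries of 24 members.

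The sum over the members was 1.57%, 1.58% and 1.63% of the normalised counts in lateral root replicates 1 to 3. In crown roots it was 0.162%, 0.119% and 0.159%, and in primary roots 0.260%, 0.379% and 0.333%. The sum was nearly level over the lateral root libraries. A pair of genes, Pgl_GLEAN_10012371 and Pgl_GLEAN_10024057, held between 43.6% and 61.8% of it in each library. Without this pair, the members took 0.742% to 0.895% of the lateral root libraries, 0.0553% to 0.0776% of the crown root libraries and 0.0995% to 0.170% of the primary root libraries.

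Pgl_GLEAN_10012371 had the highest lateral root mean of the set. Its values were 256305, 190928 and 223278 normalised counts in lateral roots, 27056, 18594 and 22541 in crown roots and 46001, 62504 and 55820 in primary roots. The 3 root types did not overlap, and primary roots lay between the other root types. Its mean was 223503 ± 32689 in lateral roots, 22730 ± 4235 in crown roots and 54775 ± 8301 in primary roots (SD, n = 3 each). This gene stood among the most abundant of the table in every root type, above 99.98% of genes in lateral roots, 98.09% in crown roots and 99.67% in primary roots.

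Pgl_GLEAN_10024057 had the most even lateral root values of the set. They were 152441, 153275 and 151456 normalised counts, so that the highest was 1.01 times the lowest. Its values were 26258, 16896 and 20673 in crown roots and 33610, 36078 and 42731 in primary roots. Again no value of one root type fell within the range of another. The lateral root mean was 7.16 times the crown root mean and 4.07 times the primary root mean.

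The next members by lateral root mean differed mainly in how far crown roots lay below primary roots. Pgl_GLEAN_10003958 had 68922, 61003 and 77919 normalised counts in lateral roots, 5840, 5882 and 8543 in crown roots and 8958, 18629 and 13867 in primary roots. Pgl_GLEAN_10025665 had 38440, 47168 and 34971 in lateral roots, 1994, 1306 and 3005 in crown roots and 3057, 8427 and 10109 in primary roots. In both genes the lowest primary root value came close to the highest crown root value. Pgl_GLEAN_10009596 ran the other way, with 35102, 42300 and 31596 in lateral roots, 10363, 6180 and 7922 in crown roots and 6662, 7136 and 4843 in primary roots. Its crown root mean was 1.31 times its primary root mean, with overlapping libraries.

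Pgl_GLEAN_10018092 had the widest gap between lateral and crown roots among the 10 members of highest lateral root mean. It had 20594, 27719 and 23430 normalised counts in lateral roots, 522, 334 and 1198 in crown roots and 1810, 4479 and 5765 in primary roots. The lateral root mean was 34.9 times the crown root mean and 5.95 times the primary root mean. No crown root value of this gene reached its lowest primary root value.

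The other 4 of these 10 members had lateral root means between 11985 and 19644 normalised counts. Pgl_GLEAN_10035133 had 17137, 21989 and 19805 in lateral roots, 2930, 1979 and 2855 in crown roots and 3145, 3842 and 5450 in primary roots. Pgl_GLEAN_10000613 had 17675, 11087 and 22553 in lateral roots, 881, 774 and 865 in crown roots and 1110, 2939 and 1658 in primary roots. The crown root values of the second gene were close together, while its lateral root values spanned a ratio of 2.03. Pgl_GLEAN_10036987 had 9646, 14406 and 11904 in lateral roots, 901, 1256 and 1145 in crown roots and 1213, 2428 and 2053 in primary roots, so that one crown root value passed the lowest primary root value. The remaining gene, Pgl_GLEAN_10012370, is described below with its neighbour in the numbering.

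**Figure D3:**
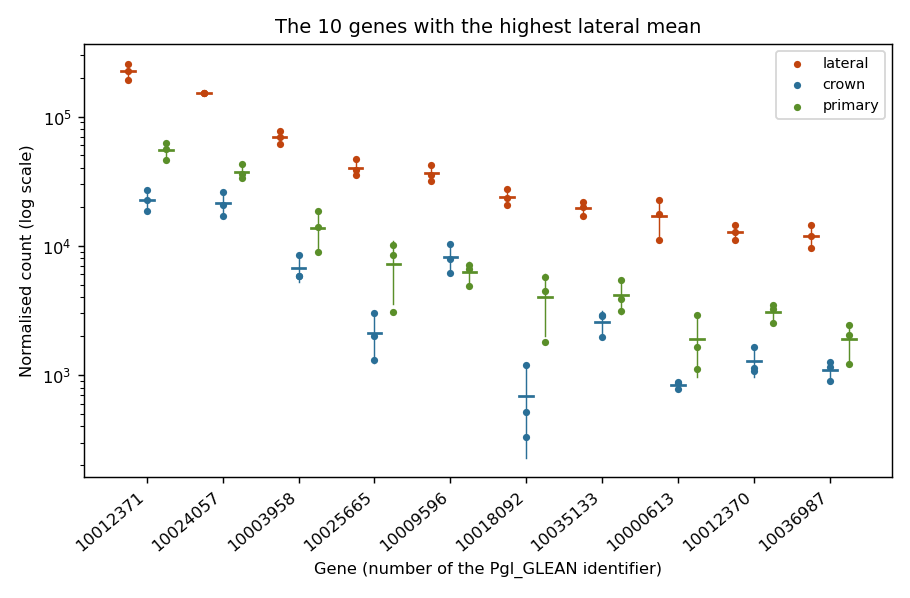
Normalised counts (log scale) of the 10 members with the highest lateral root mean, with 1 point per library in lateral, crown and primary roots, and the mean and SD of the 3 libraries of each root type. In every gene the lateral root points lie above all others, and in 9 of the 10 genes the crown root mean lies below the primary root mean, Pgl_GLEAN_10009596 being the exception.

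The largest ratios were found at lower levels than those of the 10 members above. Pgl_GLEAN_10008602 had the largest, 18.65, with 926, 2501 and 1899 normalised counts in lateral roots, 25.1, 11.2 and 47.5 in crown roots and 32.9, 49.6 and 40.6 in primary roots. Pgl_GLEAN_10034069 had 1636, 987 and 1217 in lateral roots, 7.32, 0 and 16.2 in crown roots and 26.1, 87.1 and 8.89 in primary roots. Pgl_GLEAN_10017011 had 471, 921 and 869 in lateral roots, 0, 15.2 and 21.6 in crown roots and 32.0, 40.5 and 5.08 in primary roots. The crown root values of these genes rested on 79, 22 and 35 recovered counts in all and differed widely between libraries. The primary root values of Pgl_GLEAN_10034069 and Pgl_GLEAN_10017011 also varied several-fold, while those of Pgl_GLEAN_10008602 lay close together.

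Pgl_GLEAN_10020564 had the lowest spread in lateral and in primary roots among the 8 members of largest ratio, but not in crown roots. It had 911, 1043 and 722 normalised counts in lateral roots, 66.9, 69.0 and 35.6 in crown roots and 75.9, 71.9 and 55.9 in primary roots, with a ratio of 9.51. Pgl_GLEAN_10013742 had 329, 458 and 313 in lateral roots, 4.18, 12.2 and 22.7 in crown roots and 14.3, 33.4 and 17.8 in primary roots. Crown and primary root values overlapped in both genes. The members with the lowest highest value outside lateral roots were Pgl_GLEAN_10035438 at 10.79, Pgl_GLEAN_10005234 at 16.21 and Pgl_GLEAN_10018013 at 16.72 normalised counts. Their lateral root values lay between 124.52 and 199.97 in Pgl_GLEAN_10005234 and between 155.92 and 190.25 in Pgl_GLEAN_10018013.

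Members of lower level had larger median ratios of means. With a lateral root mean under 300 normalised counts (25 genes), the lateral root mean was 18.1 times the crown root mean and 9.82 times the primary root mean in the median gene. From 300 to 1000 (48 genes) these medians were 13.0 and 7.17. From 1000 to 10000 (44 genes) they were 10.8 and 6.01, and at 10000 or more (11 genes) 10.3 and 5.58. Over the 128 genes, Spearman's rho between the lateral root mean and the ratio of the rule was -0.20, and Pearson's r on the log2 scale was -0.16. The points share their libraries and the lateral root values enter both axes, and the order of the classes is therefore only described.

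At least 1 library without counts was found in 24 members (18.8%), compared with 0.652% of the 15329 genes whose lowest lateral root value was at least 100. The rule asks for values outside lateral roots that are low against the lateral root values, and so favours such genes. A crown root library was at 0 in 22 members, a primary root library in 8, and both kinds in 6. The highest lateral root mean among these 24 was 4278 normalised counts, in Pgl_GLEAN_10020947. Its values were 1340, 6327 and 5167 in lateral roots, 0, 8.12 and 92.8 in crown roots and 30.4, 178 and 13.97 in primary roots. Over the 3 crown root libraries together, 20 members had fewer than 30 recovered counts, and 5 had fewer than 30 over the primary root libraries. Whether a recovered count stands for a single read is not known, and counting intervals are therefore left out.

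In 4 members, at least 3 of the 6 libraries outside lateral roots were at 0. Pgl_GLEAN_10033306 had 174, 231 and 337 normalised counts in lateral roots, 14.6, 0 and 0 in crown roots and 36.3, 0 and 0 in primary roots. Pgl_GLEAN_10003588 had 630, 1878 and 1266 in lateral roots, 0, 0 and 10.8 in crown roots and 9.28, 52.7 and 0 in primary roots. Pgl_GLEAN_10031739 had 120, 118 and 146 in lateral roots, 4.18, 0 and 0 in crown roots and 6.75, 0 and 34.3 in primary roots. For these genes a single crown root library was above 0, and in Pgl_GLEAN_10033306 a single primary root library as well. The order of crown and primary roots thus rested on few values. Pgl_GLEAN_10035438 had 132, 364 and 348 in lateral roots, 0, 1.01 and 10.8 in crown roots and 3.37, 0 and 0 in primary roots. Its recovered counts summed to 925 in lateral roots, 11 in crown roots and 4 in primary roots.

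Crown roots held the lowest mean in most members. The crown root mean was below the primary root mean in 111 of the 128 members (86.7%), compared with 50.9% of all genes. The crown root mean was 0.572 times the primary root mean in the median member, with quartiles of 0.403 and 0.796. Every crown root library was below every primary root library in 45 members, and this order held in 14.2% of all genes. The reverse order, every primary root library below every crown root library, was found in 0 members and in 15.1% of all genes. The rule bounds this relation on one side, since it leaves out genes with primary roots at least 2 times crown roots. It places no such bound on genes with crown roots above primary roots, other than the shared limit against lateral roots.

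The largest ratios of crown to primary root mean were 3.50 in Pgl_GLEAN_10035438, which rests on the 4 primary root counts above, 1.61 in Pgl_GLEAN_10003998 and 1.55 in Pgl_GLEAN_10035852. Pgl_GLEAN_10003998 had 301, 268 and 304 normalised counts in lateral roots, 20.9, 46.7 and 68.0 in crown roots and 24.4, 35.5 and 24.1 in primary roots. Pgl_GLEAN_10035852 had 204, 307 and 299 in lateral roots, 16.7, 58.8 and 59.4 in crown roots and 34.6, 32.4 and 20.3 in primary roots. In both genes crown root replicate 1 lay below all primary root libraries.

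The smallest ratios of crown to primary root mean were 0.0961 in Pgl_GLEAN_10018548, 0.102 in Pgl_GLEAN_10031739 and 0.166 in Pgl_GLEAN_10014103. Pgl_GLEAN_10018548 had 1005, 868 and 1107 normalised counts in lateral roots, 0, 9.13 and 4.32 in crown roots and 34.6, 95.2 and 10.2 in primary roots. Pgl_GLEAN_10014103 had 343, 292 and 376 in lateral roots, 10.4, 0 and 20.5 in crown roots and 24.4, 69.9 and 92.7 in primary roots. All primary root values were above all crown root values in these last 2 genes. Yet the lowest primary root value was less than 2 times the highest crown root value, which kept them in the set.

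The clause on crown and primary roots cut through a continuous range. Its upper edge was held by Pgl_GLEAN_10021620, whose lowest primary root value was 1.92 times its highest crown root value, and 11 members reached 1.5 times. Pgl_GLEAN_10021620 had 5178, 6456 and 8729 normalised counts in lateral roots, 660, 675 and 639 in crown roots and 1417, 1653 and 1295 in primary roots. Among the genes left out by this clause, 43 had a value above 0 in each root type. The lateral root mean was 7.18 times the primary root mean in the median member and 6.98 times in the median of these 43 genes. The median ratio of crown to primary root mean was 0.572 in the members and 0.122 in the 43 genes, which the clause itself sets apart.

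The root types were also set against each other with limma, fitted to log2(normalised count + 1) of all 19754 genes in the 9 libraries. A gene was called when it passed an adjusted p of 0.01 and differed by at least 1 on the log2 scale. Between lateral and primary roots, 103 of the 128 members were called, all higher in lateral roots, and 3.24% of all genes were called in that direction. Between lateral and crown roots, 126 members were called, all higher in lateral roots, and 8.38% of all genes were called in that direction. The rule used both contrasts and fixed the direction of every member, so nothing is read from these counts. The median log2 fold change of the members was 2.96 against primary roots and 3.84 against crown roots, while the medians over all genes were 0.00 and 0.02.

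Between lateral and crown roots, the members not called were Pgl_GLEAN_10036467 and Pgl_GLEAN_10032692. Pgl_GLEAN_10036467 had 143, 138 and 235 normalised counts in lateral roots, 38.7, 40.6 and 0 in crown roots and 20.2, 39.5 and 19.1 in primary roots. A single crown root library at 0 stood apart in this gene. Pgl_GLEAN_10032692 had 182, 255 and 253 in lateral roots, 7.32, 20.3 and 17.3 in crown roots and 5.06, 0 and 29.2 in primary roots.

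Between crown and primary roots, 5 members were called, all lower in crown roots, and 1.18% of all genes were called in that direction. Members called higher in crown roots numbered 0 by limma, and 0.4% of all genes were called in this direction. At an unadjusted p under 0.05 there were 55 members lower in crown roots and 0 higher, compared with 11.9% of all genes lower and 12.4% higher. By limma on voom-weighted recovered counts, 2 members were called lower and 0 higher, compared with 0.481% of all genes lower and 0.314% higher. The rule also used crown and primary root values, and bounded their order on one side, so nothing is read from these counts. The log2 fold changes of the 5 were -1.27 (SE 0.19) in Pgl_GLEAN_10012371, -1.27 (SE 0.19) in Pgl_GLEAN_10012370, -1.14 (SE 0.18) in Pgl_GLEAN_10021620, -1.42 (SE 0.22) in Pgl_GLEAN_10010910 and -1.44 (SE 0.24) in Pgl_GLEAN_10034266. The number called was 0 without the mean-variance trend and 0 with crown and primary roots fitted alone. It was also 0 when primary root replicate 2 was left out. In the same order, 0.466%, 0.202% and 0.41% of all genes were called lower in crown roots. Leaving out primary root replicate 3, crown root replicate 2 or lateral root replicate 3 gave 1 gene each, while lateral root replicate 2 left out gave 2 and crown root replicate 3 left out gave 3. The number was 4 without lateral root replicate 1, and 6 without crown root replicate 1 or without primary root replicate 1. With single libraries left out, 0.41% to 1.23% of all genes were called lower in crown roots. The median log2 fold change over the members was -0.83, and -0.02 over all genes.

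Of these 5 genes, Pgl_GLEAN_10010910 had 9637, 10388 and 8235 normalised counts in lateral roots, 270, 458 and 379 in crown roots and 760, 1213 and 985 in primary roots. Its lateral root mean was 25.6 times its crown root mean and 9.55 times its primary root mean. Pgl_GLEAN_10034266 had 794, 874 and 882 in lateral roots, 55.4, 67.0 and 65.8 in crown roots and 197, 208 and 122 in primary roots. In both genes each root type formed its own range, in the order lateral, primary, crown.

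Libraries of the same root type differed more in the members than in other genes. The median coefficient of variation of the members was 20.9% in lateral roots, 46.3% in crown roots and 34.5% in primary roots. Over the 15329 genes with a lowest lateral root value of at least 100 it was 12.8%, 17.1% and 11.95%. The median member is low outside lateral roots, so genes of like level were also compared. Among genes between the quartiles of the members' mean in each root type, the members had 17.6% in lateral roots, 48.3% in crown roots and 29.7% in primary roots, and all genes 12.7%, 32.1% and 25.1%.

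In lateral roots, the highest library was 1.48 times the lowest in the median member, compared with 1.28 times in the 15329 genes. A ratio of at least 2 was reached by 23 members (17.97%), compared with 4.31% of those genes. A ratio under 1.1 was found in 10 members (7.81%), compared with 11.9%. After Pgl_GLEAN_10024057, the narrowest lateral root spread was that of Pgl_GLEAN_10017601, with 2183, 2130 and 2166 normalised counts in lateral roots, 590, 474 and 458 in crown roots and 440, 659 and 505 in primary roots. Pgl_GLEAN_10007917 had 461, 457 and 447 in lateral roots, 106, 64.9 and 69.1 in crown roots and 135, 110 and 117 in primary roots. These members were even in lateral roots while their crown root libraries spread more widely.

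Lateral root replicate 1 was the lowest of the 3 lateral root libraries in 73 members (57.0%), compared with 42.5% of the 15329 genes. Lateral root replicate 2 was the highest in 64 members (50%), compared with 28.2%. The median deviation of the members from their lateral root mean was -0.19 on the log2 scale in replicate 1, 0.15 in replicate 2 and 0.05 in replicate 3. Over the 15329 genes these medians were -0.02, 0.02 and 0.00. Leaving out any lateral root library loosens the conditions on lateral roots. The rule was met by 194 genes without replicate 1, 154 without replicate 2 and 142 without replicate 3, in place of 128.

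Beside this broad shift, a few genes were much lower in lateral root replicate 1. In 10 members (7.81%) this library was below 0.5 times each of the other lateral root libraries, and in 0.424% of the 15329 genes. For replicate 2 this was so in 0 members and 0.124% of the 15329 genes, and for replicate 3 in 1 member and 0.176%. In these 10 members, lateral root replicate 1 stood at 9.47% to 42.1% of the mean of replicates 2 and 3. Their median ratio of lowest lateral root to highest other value was 6.87, compared with 3.83 in the other members.

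The widest spread of the set was in Pgl_GLEAN_10037312, at 12.2-fold. It had 427, 3811 and 5198 normalised counts in lateral roots, 35.5, 24.4 and 69.1 in crown roots and 86.8, 113 and 109 in primary roots. Pgl_GLEAN_10030565 had 204, 1269 and 1476 in lateral roots, 35.5, 22.3 and 6.48 in crown roots and 42.2, 41.5 and 12.7 in primary roots. Lateral root replicate 1 was the low library in both genes, and still above all crown and primary root values. Pgl_GLEAN_10014494 had 380, 860 and 1305 in lateral roots, 12.5, 19.3 and 14.03 in crown roots and 32.0, 36.5 and 17.8 in primary roots. The other members with this drop were Pgl_GLEAN_10020947, Pgl_GLEAN_10008602, Pgl_GLEAN_10003588, Pgl_GLEAN_10002235, Pgl_GLEAN_10035438, Pgl_GLEAN_10033307 and Pgl_GLEAN_10032027, a list made after the values were seen.

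**Figure D4:**
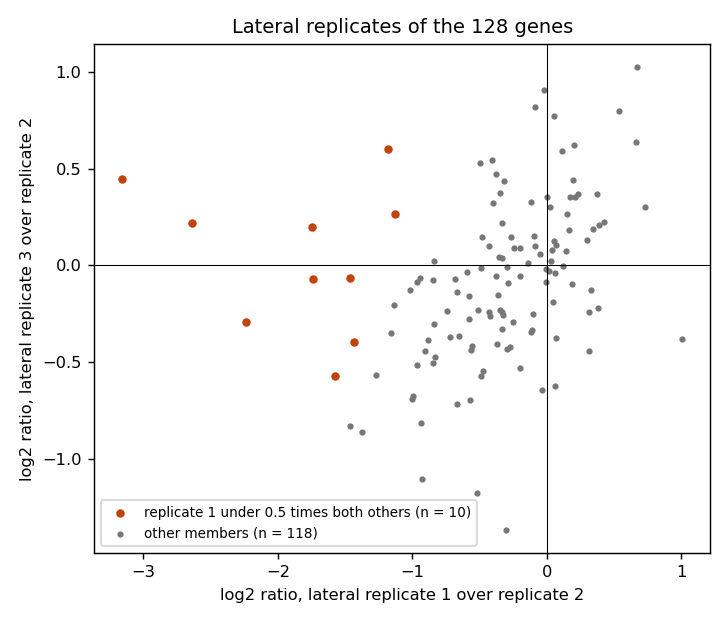
Log2 ratio of lateral root replicate 1 to replicate 2 (horizontal axis) and of replicate 3 to replicate 2 (vertical axis), 1 point per member, with lines at equal values. The 10 members in which replicate 1 was below 0.5 times each of the other lateral root libraries are drawn larger and in colour, and all lie left of -1 on the horizontal axis.

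Primary root replicate 2 was the highest primary root library in 78 members (60.9%), compared with 34.5% of the 15329 genes, and the lowest in 12 members. Its median deviation from the primary root mean was 0.33 on the log2 scale in the members and 0.00 in those genes. Among the 86 members with a primary root mean of at least 50 normalised counts, primary root replicate 2 was 1.31 times the mean of replicates 1 and 3 in the median gene. It was above that mean in 71 of the 86 (82.6%), compared with 47.9% of 15214 genes under the same limits. It reached 2 times that mean in 13 of the 86 (15.1%), compared with 1.68%. The median over those 15214 genes was 0.991 times.

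The largest excess in primary root replicate 2 among these 86 members was 8.05 times the mean of the other primary root libraries, in Pgl_GLEAN_10020947, whose values are given above. Pgl_GLEAN_10032027 had 7.20 times, with 934, 3133 and 3598 normalised counts in lateral roots, 40.8, 0 and 82.0 in crown roots and 40.5, 182 and 10.2 in primary roots. Pgl_GLEAN_10019843 had 5.00 times, with 2917, 7042 and 4750 in lateral roots, 27.2, 20.3 and 91.7 in crown roots and 103, 429 and 68.6 in primary roots. Pgl_GLEAN_10001620 had 3.80 times, with 418, 540 and 408 in lateral roots, 7.32, 22.3 and 17.3 in crown roots and 41.3, 127 and 25.4 in primary roots. These 4 genes were chosen after their values were seen.

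The rule uses the highest value outside lateral roots, and primary root replicate 2 bore on it more than the other primary root libraries. When it was left out, 210 genes met the rule, compared with 129 without primary root replicate 1 and 138 without replicate 3. Of these genes, 126, 111 and 121 were members, in the same order. The median member had 17.6% of its lateral root mean in primary root replicate 2, 11.8% in replicate 1 and 12.1% in replicate 3. In crown roots these medians were 7.51%, 6.21% and 8.40% in replicates 1 to 3, and crown root replicate 2 was the lowest crown root library in 62 members (48.4%), compared with 27.8% of the 15329 genes. Among the 43 genes left out by the clause on crown and primary roots, primary root replicate 2 was highest in 28 (65.1%), compared with 34.5% of the 15329 genes. Lateral root replicate 1 was lowest in 23 (53.5%), compared with 42.5%, and crown root replicate 2 was lowest in 15 (34.9%), compared with 27.8%. What set these libraries apart was not tested.

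**Figure D5:**
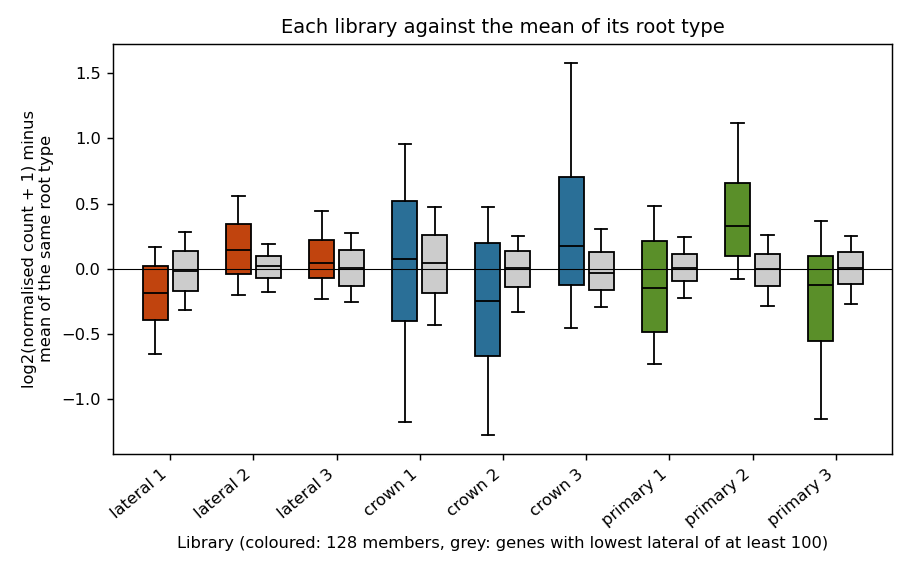
Deviation of each library from the mean of its root type on log2(normalised count + 1), as box plots for the members (coloured) and for the 15329 genes with a lowest lateral root value of at least 100 (grey), with boxes at the quartiles and whiskers at the 10th and 90th percentiles. The members' median is -0.19 in lateral root replicate 1, -0.25 in crown root replicate 2 and 0.33 in primary root replicate 2, while the grey medians lie near 0.

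Among the members were 3 pairs with consecutive identifiers. The next identifier was itself in the table for 70 members and was a member for 4.29% of them, while members made up 0.648% of the table. What consecutive numbers mean for the position of the genes was not examined here, and counts of near-identical copies can be divided between them by the counting.

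Pgl_GLEAN_10012370 kept almost the same profile as Pgl_GLEAN_10012371. It had 14547, 11093 and 12802 normalised counts in lateral roots, 1655, 1143 and 1065 in crown roots and 2525, 3267 and 3460 in primary roots. Pgl_GLEAN_10012371 was 17.2 to 17.6 times higher in the lateral root libraries and 16.1 to 21.2 times higher over all 9 libraries. Both genes were highest in replicate 1 and lowest in replicate 2 of the lateral roots.

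Pgl_GLEAN_10015965 and Pgl_GLEAN_10015964 were also alike. Pgl_GLEAN_10015965 had 1388, 2712 and 1899 normalised counts in lateral roots, 290, 228 and 84.2 in crown roots and 169, 257 and 212 in primary roots. Pgl_GLEAN_10015964 had 912, 1623 and 1169 in lateral roots, 201, 161 and 63.7 in crown roots and 123, 211 and 182 in primary roots. The order of libraries was the same within each root type, and the ratio of the genes stayed between 1.17 and 1.67.

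The last pair, Pgl_GLEAN_10033306 and Pgl_GLEAN_10033307, was low. Pgl_GLEAN_10033307 had 110, 241 and 290 normalised counts in lateral roots, 7.32, 20.3 and 0 in crown roots and 33.7, 4.05 and 7.62 in primary roots. The ratio of Pgl_GLEAN_10033306 to Pgl_GLEAN_10033307 was 0.958 to 1.58 in lateral roots. Outside lateral roots, where both had libraries at 0, their order was not the same in each library.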

How the data were processed

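RNA of 9 pools of roots was sequenced, 3 pools each of lateral, crown and primary roots. Per the labels and the methods of the study, the authors trimmed the reads (cutadapt 3.1), mapped them (HISAT2 2.0.1), assembled transcripts (StringTie 1.3.4) and normalised the counts with DESeq2. The deposited signal is the normalised count, not divided by gene length, and all columns were assigned to samples by their labels, so that 0 were left over. Every value was a whole multiple of 1 step per library (tolerance 0.1 step), which gave the recovered counts used for depth.

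The members and lists were chosen with earlier results of these data known. Members were described by their values, ratios and counts. The labels do not say whether the pools came from separate boxes, so p-values measure the spread between pools. limma 3.58.1 (R 4.3.3) was fitted with a mean-variance trend to log2(normalised count + 1) of 19754 genes, with a single term for root type, Benjamini-Hochberg adjustment, and thresholds of 0.01 and a log2 fold change of 1. A fold change on this scale can understate the change of low genes. Where libraries are at 0, it can also exceed the change in the ratio of means. The procedure was tested on simulated data, in which 200 genes that were not low were changed 4-fold. It recovered 100% of them in each contrast, with 0 or 1 false calls. All genes were simulated with the same dispersion of 0.03, so this does not cover the low and more variable members. Named genes were those at the extremes of level, ratio and spread, those next to the limits and consecutive identifiers. Some were named only for their limma call or for the edge of the clause on crown and primary roots. Others are said to be chosen after their values were seen. Gene lists by product could not be matched without an annotation. Summaries and figures were made with Python 3.11.15 (pandas 2.3.3, matplotlib 3.10.9). Alternatives covered scaling, limits, pseudocounts, low-value filters, fit settings, the replicate number as a block and each library left out.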

Additional observations from a re-analysis of the deposited data

How the results depend on the processing

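Counts of genes meeting the rule were 345 with a ratio of at least 2 and 61 with a ratio of at least 4. With single libraries left out they were 117 to 210, of which 111 to 128 were members. Equal totals gave 128 genes, 122 of them members, and quantile normalisation 122, of which 107 were members. With equal totals, the log2 fold change of the median gene was 0.19 for lateral against crown roots and -0.20 for crown against primary roots, and changes under that setting stand relative to it. Genes called between lateral and primary roots (853) were 438 without a mean-variance trend, 1512 at an adjusted p of 0.05 and 295 to 1072 with single libraries left out, and members called were 60 (without lateral root replicate 2) to 113, and 66 without lateral root replicate 3. Between lateral and crown roots (2613), leaving out libraries gave 1950 to 2760 genes and 114 to 127 members. Between crown and primary roots (313), the genes called were 390 with equal totals, 108 without the trend and 50 with only the 2 root types fitted. They were 842 at an adjusted p of 0.05, 157 with voom (chosen after seeing the data) and 96 to 289 with libraries left out. The members called there (5), all lower in crown roots, were 9 with equal totals, 20 at an adjusted p of 0.05, 2 with voom and 0 to 6 with libraries left out. In the same order, 1.72%, 2.85%, 0.481% and 0.41% to 1.23% of all genes were called lower. The members called were 0 without the trend and 0 with only the 2 root types fitted, where 0.466% and 0.202% of all genes were called lower. There limma gave 53 and 43 members lower at an unadjusted p under 0.05, compared with 11.5% and 10.9% of all genes. The cause of these changes was not tested. Of 600 levels of 40 named members recomputed, 589 stayed within 1 SD and 11 moved. Primary root replicate 2 was the highest primary library in 87 members with equal totals and 67 with quantile normalisation, and lateral root replicate 1 the lowest lateral library in 73 and 76 (scales chosen after seeing the data). The edgeR and DESeq2 alternatives were not run, since the deposited values are not counts and the smallest value of 2 libraries was 2 steps. The fit with voom rests on the same recovered counts, and the same limit applies to it.

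The labels give the root types the same replicate numbers. Over all genes, deviations from the group means correlated at -0.16 to 0.16 for the same number, over 0.1 in 1 of 9 pairs. Over the members they correlated at -0.19 to 0.20. Whether pools of the same number shared plants or boxes is not known, and these correlations cannot decide it. Most of the correlations over all genes were below 0, so not every library correlated best with its own number. With the replicate number as a block, 683 genes (99 members) were called between lateral and primary roots, 2413 (125) between lateral and crown roots and 225 (2) between crown and primary roots.

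Depth limits the members that are low outside lateral roots, where ratios rest on few counts.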
